A study of Homo sapiens with 10 samples.

Results

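The 5 libraries of NEMP1-depleted hTERT RPE-1 cells, of 10 libraries in the series, were compared by substrate stiffness. They were taken by their titles: siNemp1 at 120 kPa with 3 libraries (R1 to R3) and siNemp1 at 10 kPa with 2 libraries (R1 and R2). The other 5 libraries were of control cells of the same line, 3 at 120 kPa and 2 at 10 kPa, and served for the spread between libraries and for a test of whether the stiffness difference itself differed. hTERT RPE-1 cells are human cells of the retinal pigment epithelium, made immortal by telomerase, so the study rests on a single line. All cells were labelled as epithelial and total RNA was sequenced after removal of ribosomal RNA. The labels name an siRNA against NEMP1 but give neither its sequence, nor the nature of the control treatment, nor the time on the substrate. They also do not say whether libraries of a group came from separate cultures, so the p-values rest on the spread among these libraries alone, and that spread may be technical.

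NEMP1 spans the inner membrane of the nuclear envelope, where it is known to contribute to the mechanical stiffness of the nucleus. Cells sense a stiff substrate through integrins and focal adhesions, which pull on it with actomyosin. This tension is relayed to the nucleus by the LINC complex and is known to drive the transcriptional co-activators YAP and TAZ, which act with TEAD factors, and the actin-regulated factor SRF.

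NEMP1 itself was at 7.52, 6.70 and 4.11 CPM in siNemp1 cells at 120 kPa and 8.22 and 7.63 CPM at 10 kPa, and at 14.05 to 18.3 CPM in the 5 control libraries. CPM are counts per 1000000 reads after TMM scaling, which evens out composition between libraries. Every siNemp1 library was thus below every control library. Between stiffnesses the siNemp1 groups differed by a log2 fold change of -0.38 ± 0.25 (SE; Benjamini-Hochberg adjusted p = 0.553, quasi-likelihood test of edgeR). Without R3 of 120 kPa it was -0.19. Set against the stiffness effect in control cells, the difference was -0.36 ± 0.35 (SE; unadjusted p = 0.324, same test). The depletion of NEMP1 at 120 kPa was thus not shown to differ from that at 10 kPa. Its paralogue NEMP2 was at 5.49 to 5.92 CPM at 120 kPa and 4.78 to 5.35 CPM at 10 kPa.

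Totals were 21 to 22 M counts per library at 120 kPa and 20.2 to 23.8 M at 10 kPa. The 120 kPa libraries of siNemp1 cells spread far more than the 10 kPa pair, with a common dispersion (squared biological variation) of 0.0558 against 0.00669. Control libraries did so too, at 0.055 against 0.00191. On the first principal component R3 of siNemp1 at 120 kPa stood apart, at 58.9. R2 and R1 at 120 kPa were at 23.1 and -6.3, and the 10 kPa pair at -11.3 and -17.9. Control libraries at 120 kPa also rose from R1 to R3, at -33.3, -2.3 and 31.4, with -22.2 and -20.1 at 10 kPa. Where leaving out R3 of siNemp1 moved a fold change or list median below by over 1.5 times, the value without it is given too. Of the markers of retinal pigment epithelium, MITF, OTX2, PAX6, BEST1 and the keratins KRT8 and KRT18 were present. RPE65, RLBP1, DCT and TTR were at or near 0. TYRP1 and PMEL were low, at 1.42 to 3.39 and 1.51 to 2.75 CPM at 120 kPa. The 16 markers summed to 1530 to 2040 CPM at 120 kPa and 2010 to 2130 CPM at 10 kPa. The 8 fibroblast markers, of which THY1, FAP and PDGFRB were present and COL3A1 was at 0 in all 5 libraries, summed to 387 to 923 CPM at 120 kPa and 930 to 931 CPM at 10 kPa. Leukocyte markers summed to 494 to 857 CPM at 120 kPa and 935 to 1020 CPM at 10 kPa, nearly all from CD68, with CD3E at most 0.0865 CPM. Neuronal markers summed to 347 to 605 CPM at 120 kPa and 584 to 637 CPM at 10 kPa, from TUBB3, MAP2 and SNAP25, with RBFOX3 and ELAVL3 at most 0.0978 and 0.0865 CPM, and the median level of the 3 tested members was lowest in R3, at -0.783 on the log2 scale relative to the 10 kPa mean. Endothelial markers summed to 1.42 to 3.07 CPM at 120 kPa and 2.02 to 2.22 CPM at 10 kPa. The part of these markers in the results was not tested. In bulk RNA, fewer cells of a kind and less RNA per cell cannot be told apart.

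Across the 13990 genes tested, most genes of the cytosolic ribosome and of the nuclear-encoded respiratory chain were at higher levels in every library at 120 kPa than at 10 kPa, mitochondrially encoded genes were at lower levels, and targets of YAP and TAZ showed no common direction. No single gene passed the main test. The quasi-likelihood test of edgeR called 0 genes (0%) once p-values were adjusted by Benjamini-Hochberg at 0.05, and the lowest adjusted p was 0.315. At an unadjusted p under 0.05 there were 1655 genes, of which 1234 were higher at 120 kPa (8.82% of all tested) and 421 lower (3.01%), where 699.5 in all would be 5% of the tested genes. Without R3 of 120 kPa these were 735 higher and 381 lower. The 2 groups did not overlap for 2553 genes that were higher at 120 kPa (18.2%) and 2163 that were lower (15.5%).

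DESeq2, a second count test, called 98 genes at an adjusted p under 0.05, of 5107 to which it gave one: 96 higher at 120 kPa (1.88%) and 2 lower (0.0392%). This count depended on single libraries. It was 34 without R3 of 120 kPa, with 24 of the 98 genes among them, 29 without R2 and 158 without R1 of 120 kPa. Without R2 of 10 kPa it was 4, none among the 98, and without R1 of 10 kPa it was 0. All 98 genes had no overlap between the groups, beside 18.2% higher and 15.5% lower of all genes tested by edgeR. They were picked on these same values, so this is no further support. Of the 98, 4 differed at least 2-fold. Genes to which DESeq2 gave no adjusted p could not be called by it. Some genes described below as not called or as passing no test were therefore not judged by DESeq2.

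**Figure D1:**
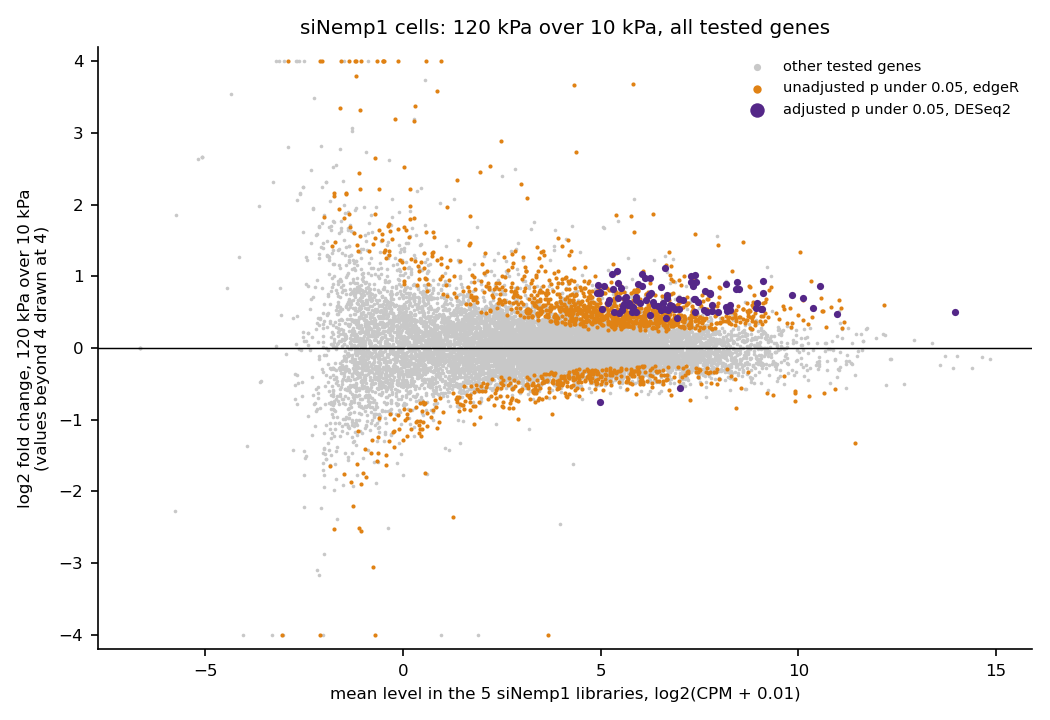
Log2 fold change of each tested gene in siNemp1 cells, 120 kPa over 10 kPa (vertical axis), against its mean level in the 5 siNemp1 libraries (horizontal axis, log2 CPM). Orange points have an unadjusted p under 0.05 (1234 above 0, 421 below 0), and violet points are the 98 genes called by DESeq2, of which 96 lie above 0.

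Most of the genes with the smallest p-values were higher at 120 kPa. SELENOT (chr3:150602875-150630445, plus strand, GRCh38), a selenoprotein of the endoplasmic reticulum, was at 202.5, 178.9 and 205.2 CPM at 120 kPa and 97.1 and 96.9 CPM at 10 kPa. The 120 kPa libraries were all well above the 10 kPa pair. The log2 fold change was 1.01 ± 0.18 (SE), or 0.94 without R3, with a Benjamini-Hochberg adjusted p of 0.315 in the quasi-likelihood test of edgeR and of 0.000657 in DESeq2. GPN1 (chr2:27628247-27651508, plus strand), a GTPase needed to bring RNA polymerase II into the nucleus, was at 98.6, 86.4 and 92.6 CPM at 120 kPa and 54.0 and 54.9 CPM at 10 kPa. Its groups did not overlap either, and the log2 fold change was 0.76 ± 0.13 (SE), with a DESeq2 adjusted p of 0.00155.

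OSTC, a subunit of the oligosaccharyltransferase that glycosylates new secretory proteins, was at 187.5 to 204.8 CPM at 120 kPa and 119.9 to 122.8 CPM at 10 kPa. CAPZA2, which caps the fast-growing end of actin filaments, was at 228.1 to 293.6 CPM at 120 kPa and 148.5 to 153.5 CPM at 10 kPa, a log2 fold change of 0.77 ± 0.15 (SE). Both were called by DESeq2, each with an adjusted p of 0.00693. So were the transport factors GOLT1B and CHMP5 (log2 fold changes of 0.73 and 0.63), the histone-fold DNA polymerase subunit POLE3 (0.59), the purine salvage enzyme HPRT1 (0.51), the mitochondrial ribosomal protein MRPL49 (0.77) and BTF3L4 (0.71), ZNF410 (0.72) and SINHCAF (0.87). PTPRR, a tyrosine phosphatase that acts on MAP kinases, had the largest fold of these leading genes, with 22.8, 17.9 and 32.01 CPM at 120 kPa and 10.2 and 9.54 CPM at 10 kPa (log2 fold change 1.29 ± 0.26, SE; 1.00 without R3). DESeq2 gave it no adjusted p, so it passed no test. RPL17-C18orf32, a readthrough of 2 neighbouring genes that shares their reads, was at 31.7 to 35.5 CPM at 120 kPa and 19.0 to 19.4 CPM at 10 kPa and is uncertain for that reason.

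Fewer genes were lower at 120 kPa. CPT1A (chr11:68754620-68844410, minus strand), the rate-limiting enzyme of fatty acid import into mitochondria, was at 119.7, 105.8 and 98.0 CPM at 120 kPa and 158.4 and 159.4 CPM at 10 kPa. All 3 libraries at 120 kPa lay below both at 10 kPa, with a log2 fold change of -0.56 ± 0.12 (SE) and Benjamini-Hochberg adjusted p-values of 0.315 in the quasi-likelihood test of edgeR and 0.0123 in DESeq2. The other gene that DESeq2 called lower, GTF2IP1, is a pseudogene nearly identical to GTF2I, so its reads may be split between copies. It was at 27.1, 23.1 and 23.5 CPM at 120 kPa and 42.9 and 40.2 CPM at 10 kPa, with a log2 fold change of -0.76. Its unadjusted p of 9.65e-05 was the smallest of all genes in edgeR (Benjamini-Hochberg adjusted p = 0.315), and its DESeq2 adjusted p of 0.000657 equalled that of SELENOT.

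MTCH2 (chr11:47617315-47642623, minus strand) is an insertase of the mitochondrial outer membrane. Among the named genes of at least 5 CPM that were lower at 120 kPa without overlap, it gave the largest difference. It was at 0.393, 0.636 and 0.606 CPM at 120 kPa and 28.4 and 33.8 CPM at 10 kPa, so the groups were far apart. The log2 fold change was -5.81 ± 1.28 (SE), with a Benjamini-Hochberg adjusted p (edgeR) of 0.315 in the fit of all 10 libraries and of 0.000196 when the siNemp1 libraries were fitted alone, where it was the only gene called. Among control libraries it was at 0.226 CPM in R1 of 120 kPa but at 26.5 and 22.2 CPM in R2 and R3 of 120 kPa and 20.6 and 27.9 CPM at 10 kPa. A near-absent value thus occurred in 1 control library as well, and whether reads were assigned to other features there was not tested.

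The other genes next in order of p among those lower at 120 kPa were not called by either test and had log2 fold changes between -0.81 (CCDC125) and -0.42 (FNBP1). DESeq2 gave an adjusted p only to SNTB2 (0.0662) and ZNF426 (0.0618) among these genes, so it could not call the rest. These lower genes included TSHZ1, a zinc finger transcription factor (7.79 to 9.24 CPM at 120 kPa, 13.8 to 14.2 CPM at 10 kPa), TOPBP1, a scaffold of the replication checkpoint (7.70 to 10.4 CPM at 120 kPa, 12.7 to 14.6 CPM at 10 kPa), and DCLRE1C, the end-joining nuclease Artemis (12.3 to 14.5 CPM at 120 kPa, 18.5 to 18.7 CPM at 10 kPa). GPCPD1, SNTB2, ZNF426, PIANP, BTBD19, FCHSD2 and SECISBP2L lay in the same range, each without overlap between its groups.

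**Figure D2:**
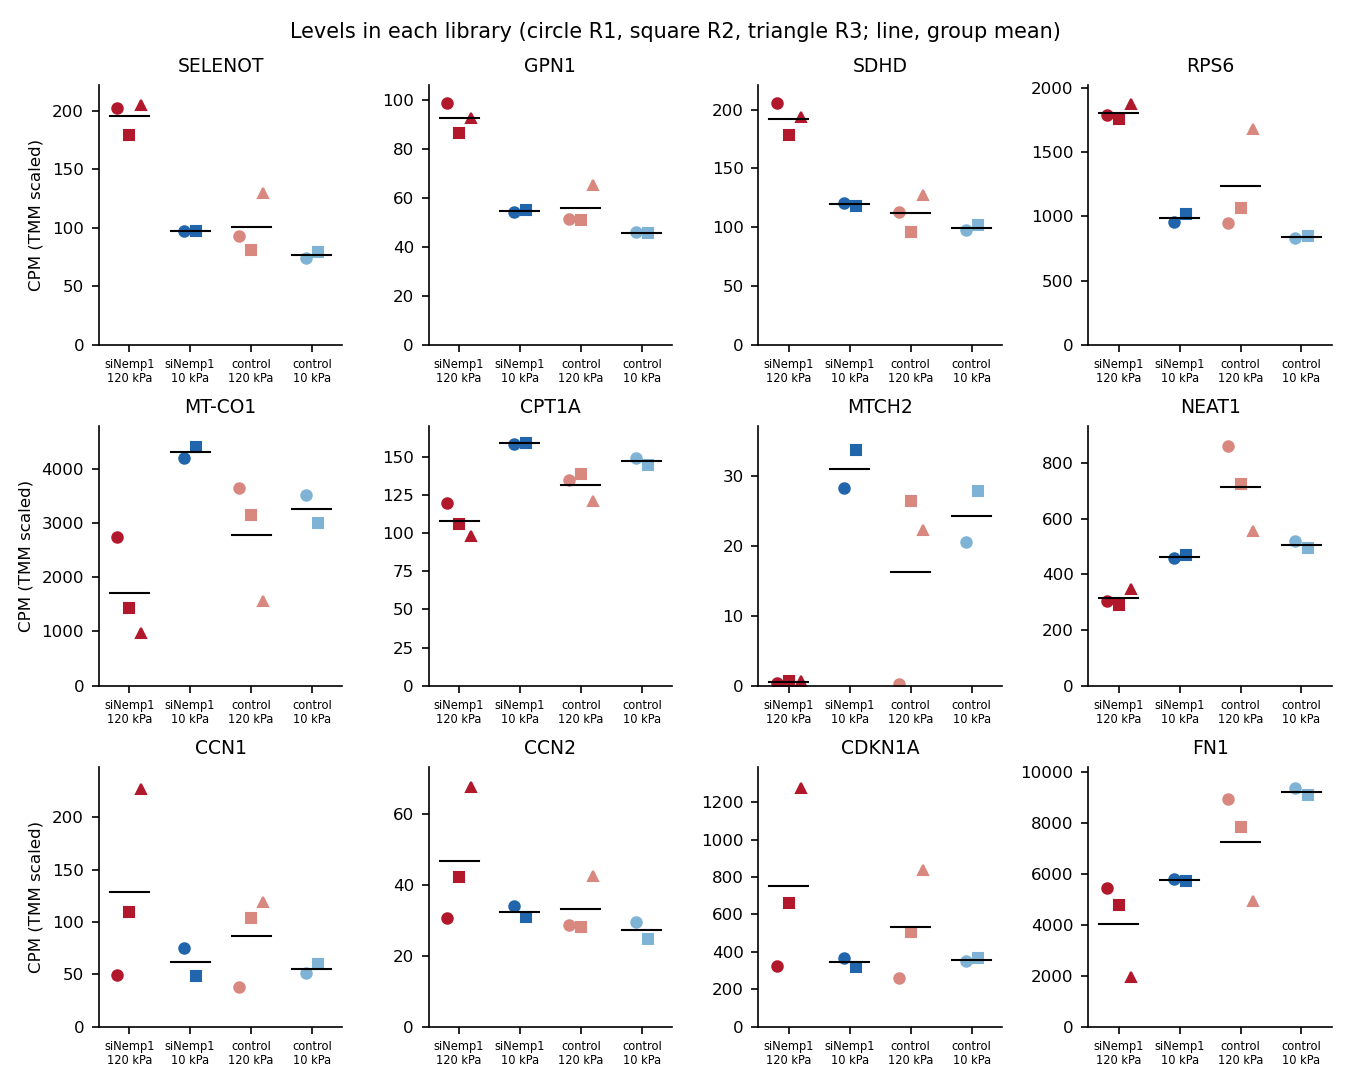
Level of 12 genes in every library (vertical axes, CPM after TMM scaling, from 0), in the order siNemp1 120 kPa, siNemp1 10 kPa, control 120 kPa and control 10 kPa; circles are R1, squares R2, triangles R3 and lines group means. SELENOT, GPN1, SDHD and RPS6 are higher in all 3 siNemp1 libraries at 120 kPa than in both at 10 kPa, whereas for CCN1, CCN2 and CDKN1A the range at 120 kPa takes in levels seen at 10 kPa.

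Of 46 cytosolic ribosomal protein genes tested, 43 were higher at 120 kPa without overlap and 0 lower, beside 18.2% and 15.5% of all genes. Their median log2 fold change was 0.47 (0.37 without R3), beside 0.02 over all tested genes (-0.03 without R3), and members ran from -0.04 (RPL22; -0.02 without R3) to 1.43 (RPL9). DESeq2 called 8 of the 46 higher, 7 without R1, 1 without R3 and 0 without R2 of 120 kPa, and 0 without either library of 10 kPa. Over all genes with an adjusted p, DESeq2 called 1.88% higher in the fit of all libraries. RPS6, a small-subunit protein phosphorylated by S6 kinase, was at 1788, 1763 and 1880 CPM at 120 kPa and 960.5 and 1023 CPM at 10 kPa, a log2 fold change of 0.87 ± 0.21 (SE). RPS7, RPL24 and RPL35 were also among those DESeq2 called, and RPS7 was at 198.4 to 232.1 CPM at 120 kPa and 106.6 to 114.6 CPM at 10 kPa. Reads of ribosomal protein genes can be shared with their many processed pseudogenes, and the sources used here do not give how the counting treated them.

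Messenger RNAs of ribosomal proteins are known to begin with a C followed by a run of pyrimidines, the 5′ terminal oligopyrimidine tract through which mTOR adjusts their translation. The sequences around the annotated starts of 4 of the genes called by DESeq2 are shown to set this feature beside the levels; they come from RefSeq (GRCh38.p14), each with 40 bases before the start and 10 from it on, and capitals mark the unbroken run of C or T across the start within that window.
RPS6, chr9:19380227-19380276, minus strand: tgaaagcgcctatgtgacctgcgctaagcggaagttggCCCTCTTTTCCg
RPS7, chr2:3575220-3575269, plus strand: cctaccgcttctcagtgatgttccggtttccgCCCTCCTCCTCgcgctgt
RPL24, chr3:101686709-101686758, minus strand: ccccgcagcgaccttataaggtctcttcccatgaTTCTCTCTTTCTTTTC
RPL35, chr9:124861948-124861997, minus strand: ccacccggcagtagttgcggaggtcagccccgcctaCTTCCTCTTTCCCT
In RPS6, RPL24 and RPL35 the start base is a C followed by at least 4 pyrimidines, whereas in RPS7 only 2 follow and the run lies mostly before the annotated start. A C at the annotated start base followed by 4 pyrimidines was found in 24 of the 37 list members with a RefSeq entry (64.9%), against 4.04% of all 27305 promoters in the table. It was found in 7.88% of the genes higher at 120 kPa at an unadjusted p under 0.05, in 4.22% of those lower and in 5.26% of all tested genes with an entry. These shares describe letters at annotated starts and nothing about the use of the tract.

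Nuclear genes of the respiratory chain lay the same way. Of 45 tested, 36 were higher at 120 kPa without overlap and 1 lower, with a median log2 fold change of 0.42 (0.35 without R3), and DESeq2 called 7 higher (4 without R1, 1 without R2 and 1 without R3 of 120 kPa, and 0 without either library of 10 kPa). Over all genes the shares without overlap were 18.2% higher and 15.5% lower, and DESeq2 called 1.88% higher of those it gave an adjusted p. SDHD, a membrane anchor of complex II, was at 205.3, 178.4 and 193.3 CPM at 120 kPa and 120.9 and 117.9 CPM at 10 kPa (log2 fold change 0.69 ± 0.13, SE; DESeq2 adjusted p = 0.00693). The complex I subunits NDUFA9 and NDUFB5 and the ATP synthase subunit ATP5PB were called by DESeq2 as well, with log2 fold changes of 0.60, 0.77 and 0.60.

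The 13 genes encoded by mitochondrial DNA, which give core subunits of these complexes other than complex II, lay the other way. All 13 were lower at 120 kPa without overlap, beside 15.5% of all genes, with a median log2 fold change of -0.63 (-0.56 without R3). Of the 13, 11 were lower at an unadjusted p under 0.05 (edgeR), beside 3.01% of all genes, but none was called by either test. MT-CO1, the catalytic subunit of complex IV, was at 2745, 1430 and 973.5 CPM at 120 kPa and 4197 and 4393 CPM at 10 kPa, a log2 fold change of -1.32 ± 0.41 (SE). The other members lay between -0.29 (MT-ND3) and that of MT-CO1, and MT-ND4, MT-CYB and MT-ND6 were at -0.63, -0.67 and -0.72. These RNAs come from 1 promoter region and 1 genome and are not independent. Counts in genes named as ribosomal RNA made up 0.164% to 0.255% of a library at 120 kPa and 0.322% to 0.323% at 10 kPa. The name search for that set also takes in ribosomal RNA genes of mitochondrial DNA, so it is not separate from the genes above. NEAT1 with MALAT1 made up 0.169% to 0.212% at 120 kPa and 0.277% to 0.295% at 10 kPa. The part of RNA preparation in these differences was not tested.

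**Figure D3:**
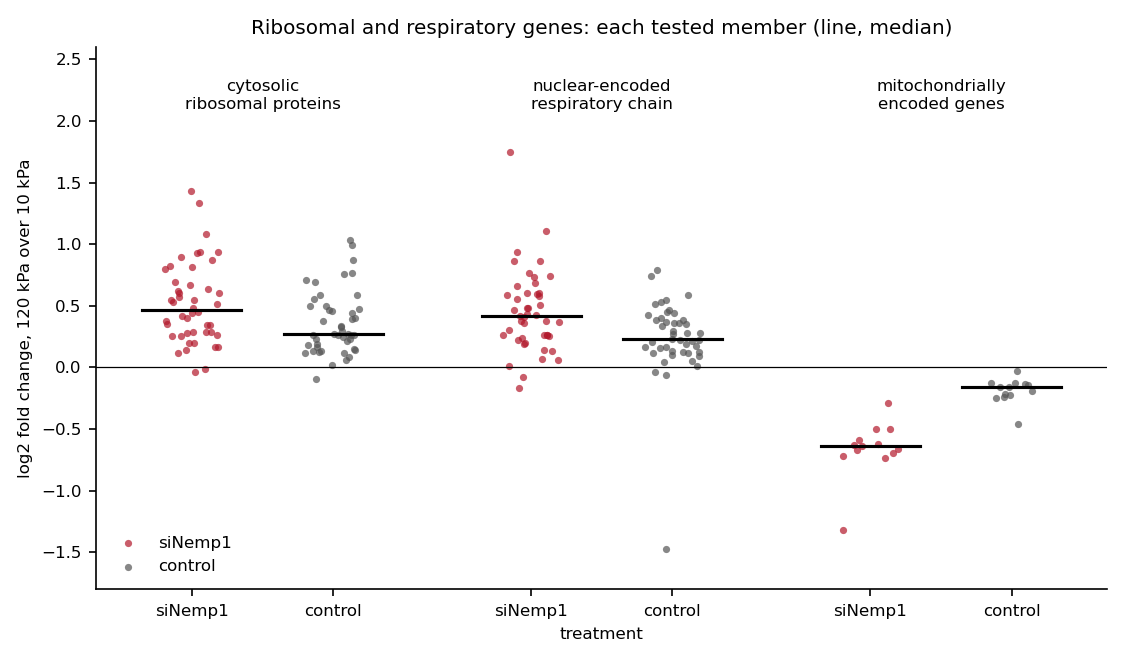
Log2 fold change, 120 kPa over 10 kPa (vertical axis), of each tested member of 3 lists in siNemp1 cells (red) and control cells (grey); bars are medians. In siNemp1 cells the medians are 0.47 for cytosolic ribosomal proteins, 0.42 for nuclear-encoded respiratory genes and -0.63 for mitochondrially encoded genes, against 0.27, 0.23 and -0.16 in control cells. In control cells R3 of 120 kPa lay furthest from the 10 kPa pair for all 3 lists.

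Targets of YAP and TAZ, the transcriptional readout most used for stiffness, showed no common direction. Of 26 tested, 1 was higher at 120 kPa without overlap and 7 lower, beside 18.2% and 15.5% of all genes. None was called by either test or had an unadjusted p under 0.05, and the median log2 fold change was 0.00 (-0.10 without R3). DESeq2 gave an adjusted p to 18 of the 26. CCN1, a matricellular protein, was at 49.6, 109 and 227 CPM at 120 kPa and 74.98 and 48.7 CPM at 10 kPa. R1 of 120 kPa thus lay within the 10 kPa range and R3 far above it, and the log2 fold change of 1.06 ± 0.63 (SE) was 0.33 without R3. CCN2, the related connective tissue growth factor, was at 30.7, 42.0 and 67.6 CPM at 120 kPa and 33.9 and 30.9 CPM at 10 kPa, and ANKRD1, a titin-binding ankyrin repeat protein, at 39.4, 46.0 and 98.4 CPM at 120 kPa and 38.2 and 40.9 CPM at 10 kPa. Both overlapped between stiffnesses, with log2 fold changes of 0.53 ± 0.30 and 0.63 ± 0.35 (SE), or 0.14 and 0.08 without R3.

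The stretches upstream of CCN2 and ANKRD1 are shown because they hold the sites through which these genes are known to answer to YAP and TAZ. Each is the 250 bases before the annotated start (RefSeq, GRCh38.p14), with capitals for the TEAD motif GGAATG on either strand.
CCN2, chr6:131951373-131951622, minus strand: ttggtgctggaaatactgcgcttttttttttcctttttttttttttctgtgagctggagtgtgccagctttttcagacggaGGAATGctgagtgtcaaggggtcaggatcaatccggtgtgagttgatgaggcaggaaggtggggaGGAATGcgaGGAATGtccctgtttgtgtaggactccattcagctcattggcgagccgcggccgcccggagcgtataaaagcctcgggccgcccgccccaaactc
ANKRD1, chr10:90921088-90921337, minus strand: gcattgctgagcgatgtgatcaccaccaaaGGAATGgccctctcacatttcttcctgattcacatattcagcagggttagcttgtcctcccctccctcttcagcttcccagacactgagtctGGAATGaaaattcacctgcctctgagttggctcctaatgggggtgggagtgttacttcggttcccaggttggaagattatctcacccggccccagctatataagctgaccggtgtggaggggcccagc
CCN2 held 3 such motifs and ANKRD1 held 2. Of the 18 YAP and TAZ targets with a RefSeq entry 6 held at least 1 (33.3%), against 11.9% of all promoters in the table. Among genes with an unadjusted p under 0.05 the share was 9.07% of those higher at 120 kPa and 8.44% of those lower, beside 9.63% of all tested genes with an entry. The AP-1 motif TGANTCA, searched in the same window on both strands, was in 4.19% of the higher genes, 2.92% of the lower genes and 4.19% of all tested. The CArG box bound by SRF was in 0.798%, 2.6% and 1.04% of the same 3 sets, and in 28.6% of the 28 actomyosin and SRF list genes with an entry.

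Actomyosin and SRF target genes split within the list. Of 32 tested, 5 were higher at 120 kPa without overlap and 7 lower, beside 18.2% and 15.5% of all genes. The median log2 fold change of the list was 0.12 (0.00 without R3). MYL6, the essential light chain of non-muscle myosin, was at 1625, 1431 and 1498 CPM at 120 kPa and 976.6 and 1091 CPM at 10 kPa, did not overlap and was the only member called by DESeq2 (log2 fold change 0.55 ± 0.15, SE; adjusted p = 0.0429). TAGLN, an actin-bundling protein of contractile cells, was at 94.0, 94.4 and 138 CPM at 120 kPa and 70.1 and 68.9 CPM at 10 kPa (0.65 ± 0.28, SE; 0.41 without R3), and MYL12A was at 402.1 to 584.4 CPM at 120 kPa and 319 to 345 CPM at 10 kPa (0.52, or 0.31 without R3). CALD1 and MYLK, caldesmon and myosin light chain kinase, were lower without overlap at -0.29 and -0.34 and passed no test. ACTA2 (log2 fold change -0.03, or -0.11 without R3), MYL9 (-0.21), VCL (-0.41, or -0.22 without R3) and ACTB (-0.27, or -0.14 without R3) did not pass either.

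Medians of the adhesion and matrix lists lay below 0, some of them close to it. Of all genes, 15.5% were lower at 120 kPa without overlap and 18.2% higher. Integrins had 4 of 16 lower without overlap and 0 higher (median -0.24, -0.18 without R3), focal adhesion kinases and adaptors 6 of 26 lower and 3 higher (median -0.07), and collagens and matrix glycoproteins 10 of 32 lower and 0 higher (median -0.15, -0.08 without R3). None of these members was called by either test, where DESeq2 gave an adjusted p to 10 of 16, 18 of 26 and 19 of 32. In control cells the medians of the same lists were -0.11, -0.13 and -0.19. PTK2, the focal adhesion kinase, was at 71.1, 60.5 and 42.1 CPM at 120 kPa and 81.0 and 79.4 CPM at 10 kPa (-0.47 ± 0.20, SE). FN1, fibronectin, was at 5429, 4773 and 1948 CPM at 120 kPa and 5813 and 5731 CPM at 10 kPa, all lower but mainly through R3 (-0.51 ± 0.36, SE; -0.21 without R3). Matrix remodelling genes had 3 of 33 higher without overlap and 10 lower, with PLAU, the urokinase protease, at 104.4, 124.9 and 240.5 CPM at 120 kPa and 82.8 and 79.4 CPM at 10 kPa (0.95 ± 0.29, SE; 0.47 without R3). Mesenchymal transition factors had 6 of 13 lower and 0 higher, among them SNAI1 (-0.50) and ZEB2 (-0.26), with a list median of -0.25 (-0.21 without R3). The summed fibroblast markers given above moved with these matrix genes, and R3 was the lowest of the 5 libraries in FN1 and PTK2; the part of either was not tested.

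Nuclear envelope and LINC complex genes, the neighbourhood in which NEMP1 sits, showed little difference. Of 26 tested, 3 were higher at 120 kPa without overlap and 2 lower, beside 18.2% and 15.5% of all genes. The median log2 fold change of the list was -0.03. The largest were TOR1A, the torsin ATPase of the envelope lumen, at 0.31 ± 0.13 (SE), and SYNE3, a nesprin, at -0.53 (-0.84 without R3). LMNA, which encodes lamins A and C, was at 336.2, 550.6 and 446.2 CPM at 120 kPa and 496.4 and 369.0 CPM at 10 kPa and overlapped fully (0.04 ± 0.34, SE). LMNB1 (-0.41), SUN1 (-0.13), SUN2 (0.14) and EMD (0.13) overlapped as well, and without R3 they were at -0.10, -0.08, -0.01 and 0.05, with LMNA at 0.01. Nuclear pore genes had 8 of 29 higher without overlap and 6 lower, with NUP35 at 0.87 ± 0.25 (SE). The mechanosensitive channel PIEZO1 was at 30.2, 44.4 and 48.1 CPM at 120 kPa and 37.4 and 35.2 CPM at 10 kPa (0.17, or 0.01 without R3).

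Cell cycle and stress genes spread widely among the 120 kPa libraries. Mitosis genes had 14 of 45 lower without overlap and 3 higher (median -0.28, -0.16 without R3), beside 15.5% and 18.2% of all genes. DNA replication genes had 10 of 42 lower and 5 higher (median -0.11, 0.01 without R3). MKI67, which marks cycling cells, was at 60.9, 51.0 and 31.5 CPM at 120 kPa and 67.2 and 67.4 CPM at 10 kPa (-0.49 ± 0.22, SE; -0.30 without R3). Some cycle genes lay the other way, with MAD2L1, a spindle checkpoint protein, at 29.6 to 39.3 CPM at 120 kPa and 22.2 to 24.3 CPM at 10 kPa, and PCNA, the replication clamp, at 80.6 to 98.6 CPM at 120 kPa and 61.9 to 67.9 CPM at 10 kPa.

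Of 30 targets of p53, 12 were higher at 120 kPa without overlap and 0 lower, beside 18.2% and 15.5% of all genes. The median log2 fold change of the list was 0.72, or 0.19 without R3. CDKN1A, the inhibitor p21, was at 325, 659 and 1274 CPM at 120 kPa and 367 and 320 CPM at 10 kPa, so R1 lay within the 10 kPa range and R3 far above it (1.13 ± 0.57, SE; 0.49 without R3). PMAIP1, the death-promoting protein NOXA, was at 62.0, 67.3 and 121 CPM at 120 kPa and 43.5 and 37.9 CPM at 10 kPa and was the only p53 target called by DESeq2 (adjusted p = 0.0375; 0.157 without R3 and 0.0784 without R2 of 120 kPa), with a log2 fold change of 1.04, or 0.63 without R3. TRIAP1, FAS and RRM2B had log2 fold changes of 1.07, 1.17 and 0.51 without overlap, or 0.55, 0.48 and 0.32 without R3, and passed no test. Replication-dependent histone genes had 8 of 20 higher without overlap and 0 lower (median 0.63, 0.35 without R3), with H4C3 at 87.2, 92.0 and 210.5 CPM at 120 kPa and 55.4 and 60.9 CPM at 10 kPa (1.16, or 0.59 without R3).

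Unfolded protein and integrated stress response genes had 12 of 32 higher without overlap and 6 lower (median 0.44, 0.22 without R3). The shares over all genes were 18.2% higher and 15.5% lower. DNAJB9, a chaperone partner of BiP, was at 27.9, 39.5 and 41.7 CPM at 120 kPa and 20.2 and 16.1 CPM at 10 kPa (1.00 ± 0.24, SE), and ATF5 was lower at -0.53. Cytokines and chemokines had 4 of 20 higher and 2 lower, near the shares over all genes (median 0.39, 0.41 without R3). CXCL8, interleukin 8, was at 12.7, 93.3 and 162 CPM at 120 kPa and 7.55 and 6.36 CPM at 10 kPa, above the 10 kPa pair in every library but with a wide spread (3.68 ± 1.30, SE; Benjamini-Hochberg adjusted p = 0.354, edgeR). IL1A was listed at 0 in both 10 kPa libraries and at 0.344, 0.587 and 2.55 CPM at 120 kPa. NF-kB subunits and feedback genes had 4 of 20 higher and 2 lower, again near the shares over all genes (median 0.28, 0.04 without R3). Immediate early genes had a median of 0.37 (0.08 without R3), with ATF3 at 1.03, 6.16 and 18.3 CPM at 120 kPa and 1.17 and 1.11 CPM at 10 kPa (2.89, or 1.62 without R3).

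**Figure D4:**
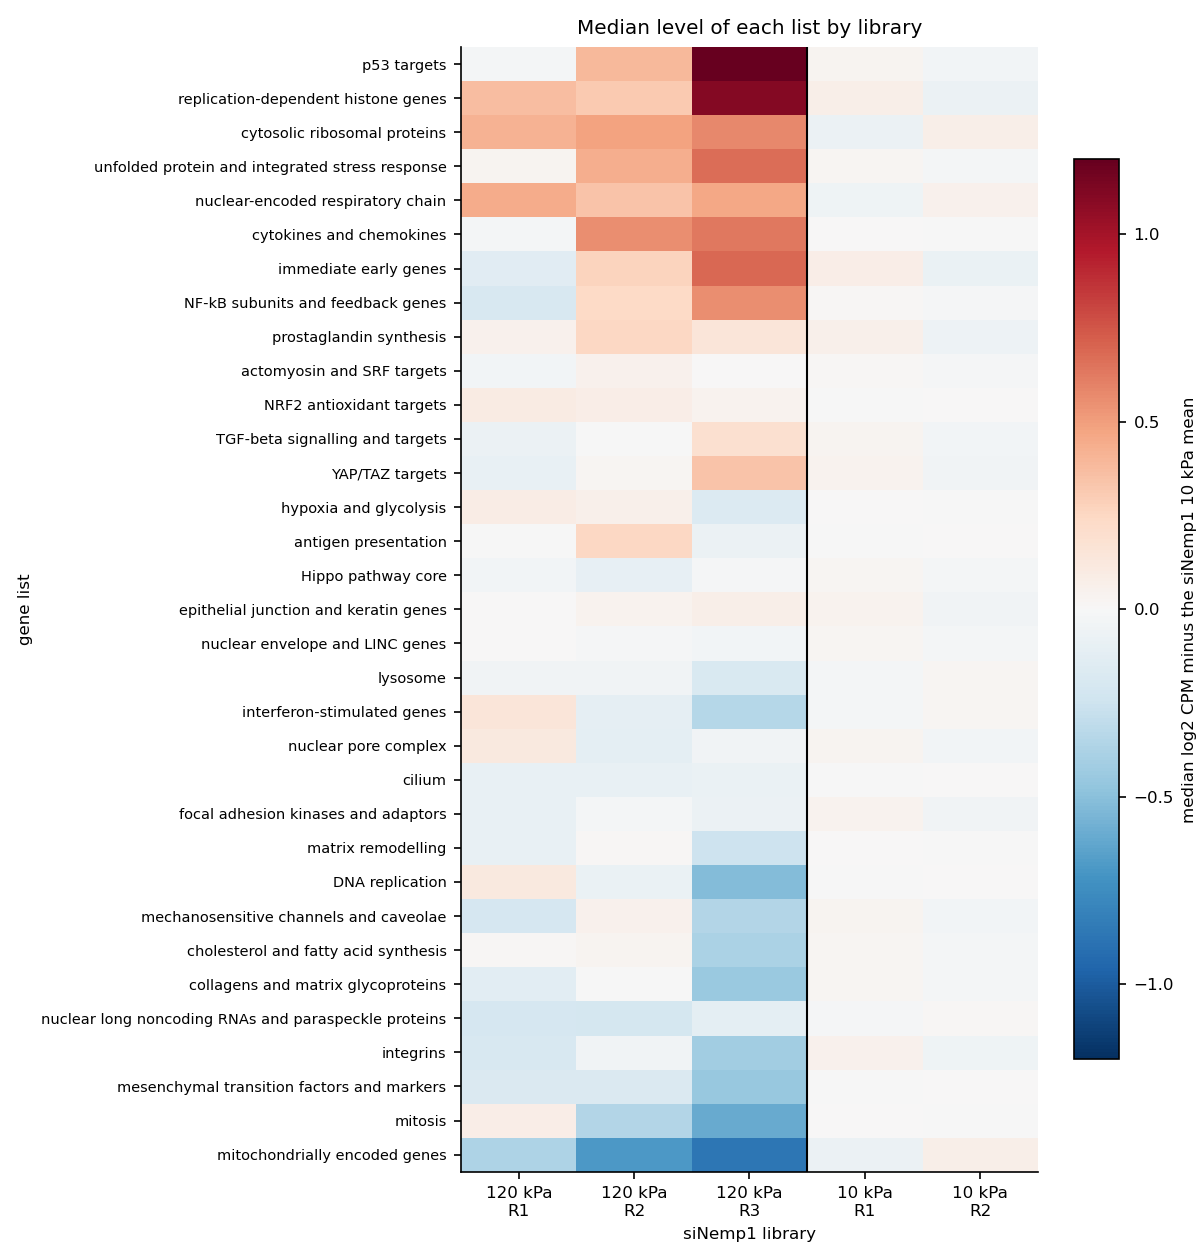
Median level of the tested members of each gene list in the 5 siNemp1 libraries (columns, 120 kPa R1 to R3 left of 10 kPa R1 and R2; rows are lists in the order of their median fold change), as log2 CPM minus the mean of the 10 kPa libraries. Ribosomal and respiratory lists are high in all 3 libraries at 120 kPa, at 0.42, 0.48 and 0.58 and at 0.44, 0.34 and 0.46, whereas p53 targets run from -0.02 in R1 to 1.29 in R3.

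Interferon-stimulated genes had 9 of 32 lower without overlap and 4 higher (median -0.05, 0.01 without R3), beside 15.5% and 18.2% of all genes. Antigen presentation genes had 2 of 16 lower and 1 higher. B2M, the light chain of MHC class I, was the only member of either list called by DESeq2 (0.47 ± 0.14, SE). Hypoxia and glycolysis genes had 6 of 34 higher and 1 lower (median 0.00, 0.05 without R3), with HILPDA, a lipid droplet protein, called by DESeq2 at 0.63. Nuclear long noncoding RNAs and paraspeckle proteins had 6 of 13 lower without overlap and 2 higher (median -0.19). At an unadjusted p under 0.05 there were 4 lower and 2 higher, beside 3.01% and 8.82% of all genes. MALAT1 was at -0.57 and NEAT1 at -0.56, and GAS5, a host of small nucleolar RNAs, at 1.59. Hippo pathway genes had 7 of 24 lower and 0 higher (median -0.01, -0.12 without R3), with YAP1 at -0.04, WWTR1, which encodes TAZ, at -0.22 (-0.12 and -0.13 without R3) and NF2 at -0.22. Medians of the TGF-beta, epithelial junction, cholesterol synthesis, lysosome, NRF2, prostaglandin, caveolae and cilium lists lay between -0.14 and 0.21 (-0.12 and 0.21 without R3), and none of their members was called by either test. DESeq2 gave an adjusted p to 10 of 25, 12 of 20, 21 of 30, 24 of 28, 14 of 22, 1 of 11, 6 of 17 and 13 of 31 members, in that order. The rest could not be called by it.

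**Figure D5:**
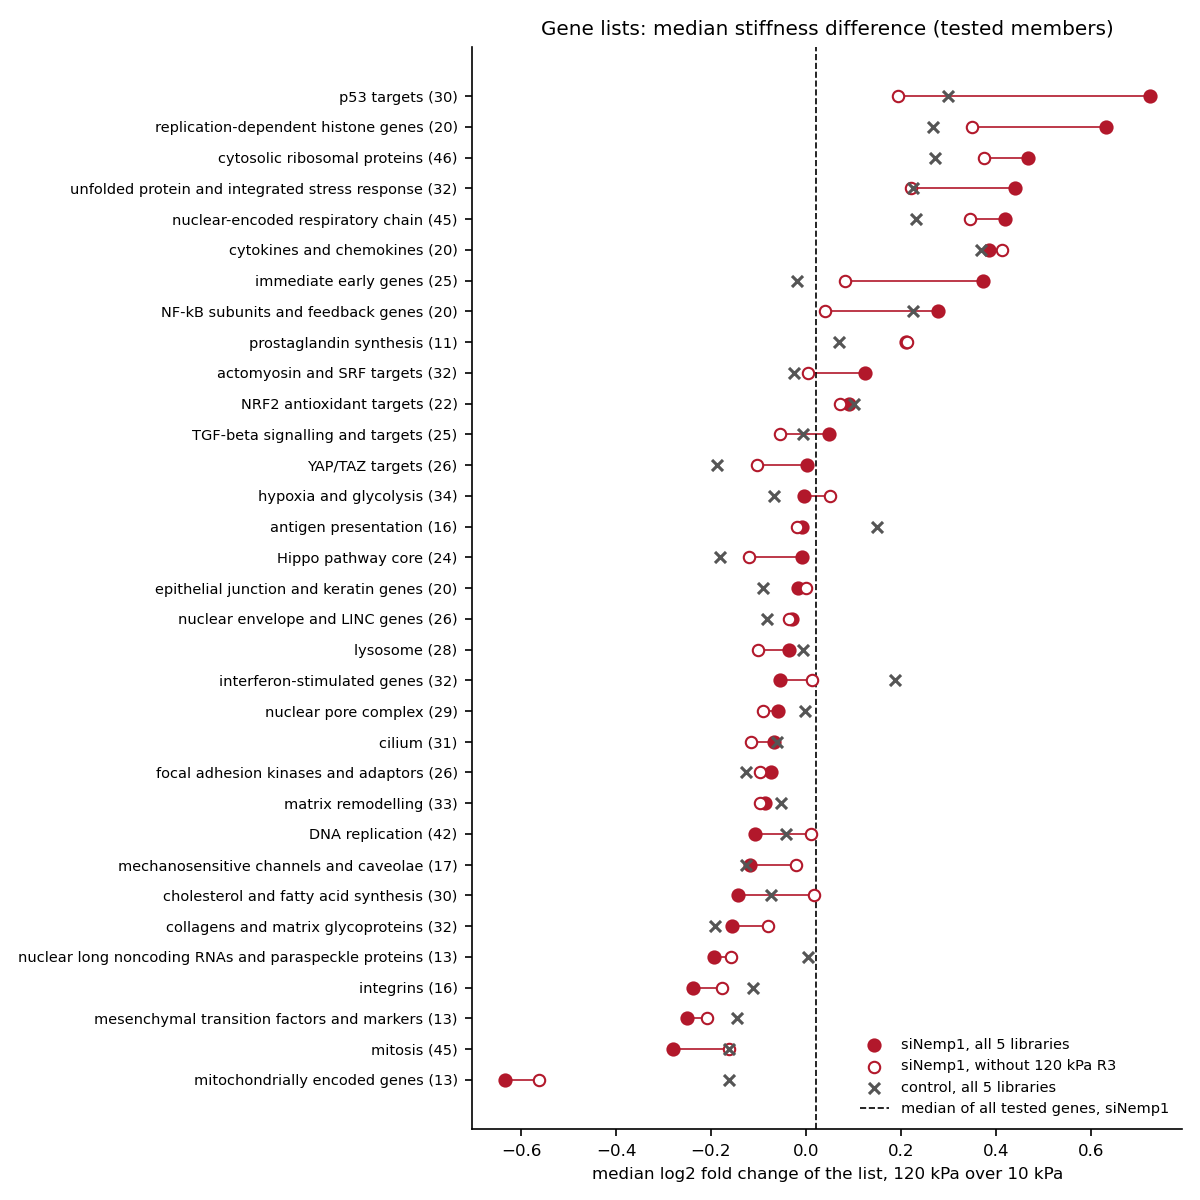
Median log2 fold change, 120 kPa over 10 kPa (horizontal axis), of each gene list, with the number of tested members in brackets: filled circles are all 5 siNemp1 libraries, open circles siNemp1 without R3 of 120 kPa, crosses control cells, and the dashed line the median of all genes in siNemp1 cells. Mitochondrially encoded genes lie lowest at -0.63, p53 targets highest at 0.72 with an open circle at 0.19.

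The genes also differed in length. Those higher at 120 kPa at an unadjusted p under 0.05 had a median annotated transcript length of 830.5 bases, those lower 1119 bases, and all tested genes 1016 bases. Libraries also differed by length. Relative to the mean of the siNemp1 10 kPa pair (log2), the median of genes of at least 1906.5 bases lay at -0.058 to -0.073 in siNemp1 cells at 120 kPa. That pair itself, at 0.015 and -0.015, is centred on 0 by this choice of reference. Control libraries were at 0.034, 0.03 and -0.026 at 120 kPa and 0.102 and 0.085 at 10 kPa. With length and GC trends removed from each library, the medians of ribosomal protein, nuclear respiratory and mitochondrially encoded genes were 0.40, 0.39 and -0.71, and edgeR still called 0 genes.

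Whether the stiffness difference was other than in control cells was tested as the difference between the siNemp1 and control stiffness effects, in the same fit. Of 13990 genes, 1 passed the quasi-likelihood test of edgeR at a Benjamini-Hochberg adjusted p under 0.05 (0.00715%), and 235 (1.68%) had an unadjusted p under 0.05, while DESeq2 called 3 (0.0127%). Same-numbered siNemp1 and control libraries at 120 kPa deviated together from their group means (correlations of 0.426, 0.157 and 0.359 for R1, R2 and R3), whereas those at 10 kPa did so little (0.0171). With the number as a block edgeR called 4 genes and 488 had an unadjusted p under 0.05, and with the number as a block within each stiffness it called the same 4, with 852 under 0.05. These were GATAD2B, AKR1B1, BLOC1S5-TXNDC5 and H2AC19, of which BLOC1S5-TXNDC5, a readthrough, and H2AC19, which has a near-identical copy, were listed at 0 in all 3 siNemp1 libraries at 120 kPa and present in only 1 of 2 at 10 kPa. The gene that passed, GATAD2B, a subunit of the NuRD chromatin remodeller, was at 0.934, 2.74 and 2.03 CPM in siNemp1 cells at 120 kPa and 0.713 and 0.808 CPM at 10 kPa, and at 0.0453, 0.1102 and 0.0842 CPM in control cells at 120 kPa and 3.82 and 4.37 CPM at 10 kPa. It was low throughout, with a log2 fold change of 1.32 ± 0.45 (SE) in siNemp1 cells and -5.60 ± 0.54 (SE) in control cells. As a log2 value the difference was 6.92 ± 0.73 (SE), and the adjusted p was 0.0207 in edgeR and 2.69e-08 in DESeq2, and 0.00346 in edgeR with the number as a block. The edgeR call without a block was lost without R3 of siNemp1 at 120 kPa (adjusted p = 0.0593), without R1 or R2 of siNemp1 at 10 kPa (0.389 and 0.0654), without R2 or R3 of control at 120 kPa (0.11 and 0.1) and without R2 of control at 10 kPa (0.132).

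AKR1B1, an aldose reductase, was called for the difference by DESeq2 (adjusted p = 0.00557) and by edgeR with the number as a block (Benjamini-Hochberg adjusted p = 0.00751, or 0.0042 within stiffness), but not without it (0.779). It was at 745, 800 and 924 CPM in siNemp1 cells at 120 kPa and 672 and 720 CPM at 10 kPa, and at 707, 784 and 1042 CPM in control cells at 120 kPa and 1719 and 1760 CPM at 10 kPa. The control libraries at 10 kPa alone stood high, and the difference was 1.28 ± 0.24 on the log2 scale (SE). The third gene called by DESeq2, DPY19L2P1, is a pseudogene with at most 16 counts in any library. NEAT1, the RNA scaffold of paraspeckles, was at 304, 292 and 348 CPM in siNemp1 cells at 120 kPa and 459 and 469 CPM at 10 kPa, and at 862, 726 and 557 CPM in control cells at 120 kPa and 518 and 494 CPM at 10 kPa. NEAT1 was thus lower at 120 kPa in every siNemp1 library and higher in every control library, with a difference of -1.06 ± 0.24 (SE) that did not pass either test, nor with the number as a block (Benjamini-Hochberg adjusted p = 0.554, edgeR). MRPS6, NUDT3, ERMARD and RCAN1 (differences of 0.72, 0.86, 1.16 and 1.28) and the interferon-induced IFIT3 and IFIT2 (-0.74 and -0.69) were next in order of p among the named genes and did not pass; RCAN1 was at 0.84 without R3.

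Gene lists lay on the same side in control cells for the ribosome and the respiratory chain. Of the 46 ribosomal protein genes 43 were higher without overlap at 120 kPa in siNemp1 cells and 36 in control cells, where the share over all genes was 10.3% higher and 11.9% lower, and of the 45 respiratory genes 36 in siNemp1 cells and 29 in control cells. The control libraries at 120 kPa were uneven, with R3 furthest from the 10 kPa pair. Relative to the siNemp1 10 kPa mean (log2), control ribosomal levels were -0.04, 0.02 and 0.49 in R1 to R3 of 120 kPa and -0.12 and -0.13 at 10 kPa. Respiratory levels were -0.08, -0.06 and 0.30 at 120 kPa and -0.20 and -0.19 at 10 kPa. All 13 mitochondrially encoded genes were lower without overlap in siNemp1 cells and 1 in control cells, with a median difference of the effects of -0.46, and 0 had an unadjusted p under 0.05 for that difference, or 5 with the number as a block and 9 with the block within stiffness. On the same scale their control levels were 0.33, 0.02 and -0.59 in R1 to R3 of 120 kPa and 0.18 and 0.16 at 10 kPa. R1 thus lay above the control 10 kPa pair and R3 far below it. Interferon-stimulated genes had 4 higher and 9 lower in siNemp1 cells and 12 higher and 0 lower in control cells, with a median difference of -0.27 and 2 of 32 at an unadjusted p under 0.05, or 3 and 7 with these blocks. Of the 1234 genes higher in siNemp1 cells at an unadjusted p under 0.05, whose median log2 fold change was 0.54, the median in control cells was 0.26, and 85 had an unadjusted p under 0.05 for the difference. Since the genes were picked on the siNemp1 values, the smaller control value is a description only.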

How the data were processed

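The 10 RNA libraries were assigned to a treatment and a stiffness by title. Per the labels' protocols, RNase H treatment removed ribosomal RNA from total RNA before random-hexamer priming. Salmon 1.80 (their spelling of the version), Trimmomatic 0.33, FastQC 0.11.9, an edgeR of unstated version and GRCh38 are named in the submitters' processing notes. Neither strandedness nor the annotation, nor how transcripts were summed to genes, is stated. The table as deposited holds estimated counts per gene, the authors' expected counts before scaling, for 40664 genes in 10 libraries. They were rounded to whole numbers.

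Genes were filtered with filterByExpr over the 4 groups, scaled with TMM and fitted with a robust quasi-likelihood model of 1 mean per group to all 10 libraries (edgeR 4.0.16, limma 3.58.1, R 4.3.3; 6 residual degrees of freedom), so control libraries share in the estimate of spread. Tests were two-sided, with Benjamini-Hochberg adjusted p under 0.05 over all tested genes called. DESeq2 1.42.0 was an alternative. Numbers paired siNemp1 with control libraries at 120 kPa by the correlation of their deviations from group means (0.426, 0.157 and 0.359, all above 0.1) but not 120 kPa with 10 kPa libraries, so fits with the number as a block stand beside the difference. Gene positions, length and GC content were read from GENCODE 29 (98.8% of tested genes with a length), as medians over annotated transcripts, and promoters from RefSeq; where a symbol had several, the first was used. CCN1 had no entry.

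Members and lists were chosen with earlier results of these data known. Named genes were NEMP1 and NEMP2, a fixed set of mechanics, cycle and housekeeping genes, and up to 15 genes in each direction among called genes that averaged 5 CPM or more without overlap. Unfilled places went first to genes called in siNemp1 libraries alone, then to the smallest unadjusted p. They also took 5 genes in each direction for the difference. Within lists, the 4 members with the smallest p were considered; since no list had 3 called members, that rule was set after values were seen, as were further DESeq2-called genes, list extremes and the search for pyrimidine starts. The motif shares planned for called genes use genes with an unadjusted p under 0.05. Some genes these rules took are not described.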

Additional observations from a re-analysis of the deposited data

Results flagged for a closer look

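GATAD2B was flagged because its stiffness effect differed between siNemp1 and control cells by the test of the difference itself, by 6.92 on the log2 scale. It lay above the 10 kPa pair in all 3 siNemp1 libraries at 120 kPa and below it in all 3 control libraries at 120 kPa. Its mean was 1.90 CPM in siNemp1 cells at 120 kPa and 0.760 CPM at 10 kPa, and 0.0799 CPM in control cells at 120 kPa and 4.09 CPM at 10 kPa, so all values were low. The deposited estimate is per gene, and whether reads moved between transcripts or features was not tested. No group had more than 3 libraries, so no search for single deviating samples was made.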

How the results depend on the processing

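The count for stiffness in siNemp1 cells, 0 genes, stayed at 0 under upper-quartile scaling, DESeq2 size factors or a filter at 5 CPM. Asking called genes for at least a 2-fold change could only drop genes, so with 0 called it tested nothing. The count was also 0 under limma voom with weights by group (lowest adjusted p 0.0519), and once trends of length and GC were taken out. It was 529 with no filter on low counts (456 higher, 73 lower), of which 516 genes also pass the filter of the reported fit and which hold 68 of DESeq2's 98 genes. It was 1 for the siNemp1 libraries alone, 98 with DESeq2, 106 with DESeq2 limited to the edgeR genes, 34 with DESeq2 without R3 of siNemp1 at 120 kPa, and 0 to 2 over leaving out each library in turn. The count for the difference from control, 1, was 70 with no filter, 0 with the 5 CPM filter, 0 with voom, 3 with DESeq2, 4 with DESeq2 on the edgeR genes and 0 to 3 over left-out libraries (0 without R3 of siNemp1 at 120 kPa). The cause was not tested. The DESeq2 fit on edgeR genes, the DESeq2 fits with a library left out and the length and GC fit were chosen after seeing the data.

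Replicate numbers pair R1 and R2 across stiffness, but same-numbered siNemp1 libraries did not deviate together (correlations of -0.104 and -0.0849). With the number as a block, edgeR called 2 genes for stiffness, both lower, and 4 for the difference, and the block within each stiffness, chosen after seeing the data, also gave 4 for the difference. The block turned COL1A1 to -0.15, LMNA to -0.13, SUN1 to 0.0056, SUN2 to -0.0042 and PIEZO1 to -0.0033, all within 1 SE of 0 in the reported fit. COL1A1 also turned to -0.0073 with DESeq2's size factors, -0.0305 with upper-quartile scaling, -0.0123 with voom and -0.10 with length and GC removed, and LMNA to -0.0067 with upper-quartile scaling and -0.0788 with length and GC removed. Leaving out libraries, log2 fold changes ran from -0.1164 to 0.0296 for YAP1, -0.2382 to 0.2336 for COL1A1, -0.1272 to 0.0244 for THBS1, -0.1064 to 0.0675 for ACTA2, -0.1455 to 0.2681 for LMNA and -0.0109 to 0.3329 for SUN2. Of 1236 values of named genes 1155 kept their direction and side of the threshold. Of 680 list medians 612 moved by no more than the spread of the list's level between siNemp1 libraries of a stiffness. R3 of 120 kPa itself widens that spread, so a large move can pass as none. The median of p53 targets, 0.72 with all libraries and 0.19 without R3, counted as unmoved against a spread of 0.55. The count of 612 is therefore no measure of stability. Totals ran from 17.9 to 23.8 M counts over the 10 libraries; what limits the number of calls was not tested.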
